A study of Homo sapiens with 6 samples.

Results

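The genes described here were the 4 ERBB receptors (ERBB2, EGFR, ERBB3 and ERBB4) and 5 of their EGF-like ligands (AREG, EREG, HBEGF, TGFA and BTC). They were picked by gene symbol, with earlier results of these data known, and all 9 were found among the 16390 genes listed in each library. All 9 also passed the filter on low counts that left 13055 genes for testing. RNA had been sequenced from SW780, a human line of bladder cancer treated in the study as luminal, in 3 Control libraries and 3 libraries made after exposure to 25 µg/ml of RC48. RC48 is an antibody-drug conjugate whose antibody binds ERBB2 and whose payload is the microtubule inhibitor monomethyl auristatin E. The labels give Control or RC48 as the difference between the groups and name no other agent or allele, and the exposure time of this experiment is not given in the sources used here. All 6 libraries come from 1 cell line, and no source says that they came from separate cultures, so p-values measure the spread between these libraries, which may be technical.

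ERBB receptors are tyrosine kinases of the cell surface that pair with themselves or each other when a ligand binds, and then signal through the RAS-ERK and PI3K-AKT cascades. ERBB2 binds no known ligand and is the favoured partner of the other receptors, while ERBB3 has a weak kinase and signals through its partner. The ligands are made as membrane-anchored precursors that metalloproteases cut free: AREG and TGFA act on EGFR, and HBEGF, EREG and BTC act on EGFR and ERBB4. ERBB2 is abundant in a share of bladder cancers, often of luminal type, and EGFR is often abundant in those of basal type.

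In the GRCh38.p14 annotation of RefSeq, ERBB2 lies at chr17:39688094-39728658, EGFR at chr7:55019017-55211628, ERBB3 at chr12:56080108-56103505 and ERBB4 at chr2:211375717-212538802. AREG (chr4:74445136-74455005), EREG (chr4:74365145-74388749) and BTC (chr4:74744759-74794523) are neighbours on chromosome 4. HBEGF lies at chr5:140332843-140346603 and TGFA at chr2:70447284-70553826. RefSeq promoter windows of 300 bases, 250 before and 50 after the annotated start, were found for 8 of the 9 genes, all but ERBB3. The windows of ERBB2, the target of RC48, and of HBEGF and BTC, whose groups of libraries did not overlap, are printed 5′ to 3′ on the strand of the gene, with matches to the searched motifs in capitals. They lie at chr17:39687844-39688143 (plus strand), chr5:140346554-140346853 (minus strand) and chr4:74794474-74794773 (minus strand).
ERBB2: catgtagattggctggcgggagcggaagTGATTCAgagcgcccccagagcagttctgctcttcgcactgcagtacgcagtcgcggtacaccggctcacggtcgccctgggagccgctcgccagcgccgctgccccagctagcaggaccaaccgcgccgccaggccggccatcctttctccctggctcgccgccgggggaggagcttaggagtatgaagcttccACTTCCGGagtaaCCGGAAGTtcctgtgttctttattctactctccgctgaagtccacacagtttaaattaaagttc
HBEGF: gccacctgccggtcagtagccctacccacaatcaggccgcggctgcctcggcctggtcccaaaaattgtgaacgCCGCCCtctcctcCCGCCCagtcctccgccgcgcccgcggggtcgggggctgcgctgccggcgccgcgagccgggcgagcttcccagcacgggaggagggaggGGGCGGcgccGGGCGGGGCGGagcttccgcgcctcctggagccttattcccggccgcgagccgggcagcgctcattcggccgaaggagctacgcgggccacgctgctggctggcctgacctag
BTC: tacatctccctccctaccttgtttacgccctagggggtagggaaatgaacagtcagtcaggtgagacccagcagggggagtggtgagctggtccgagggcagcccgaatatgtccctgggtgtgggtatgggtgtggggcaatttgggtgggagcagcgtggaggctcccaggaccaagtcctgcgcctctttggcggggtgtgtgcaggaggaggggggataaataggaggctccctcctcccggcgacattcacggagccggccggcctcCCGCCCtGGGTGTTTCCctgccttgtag
The search covered both strands for a CRE (TGACGTCA), an ETS site (CCGGAAGT), an AP-2 site (GCCNNNGGC), an NF-kB site (GGG, any 2 bases, TTTCC), an AP-1 site (TGANTCA), a GC box (GGGCGG) and a TATA box (TATAAA). Positions are counted from the annotated start, with the first base of the match given. In ERBB2, the capitals mark an AP-1 match at -222 and ETS matches at -27, on the opposite strand, and at -14. ETS matches were held by 4.14% of 35116 promoter windows of the same length and AP-1 matches by 7.71%. The HBEGF window has 5 GC boxes, at -176 and -163 on the opposite strand, and at -73, -63 and -58. The last 2 overlap, and 45.0% of all windows hold at least 1 GC box. The BTC window has a GC box at 23 bases past the start, on the opposite strand, and an NF-kB match at 30 bases past it. Of all windows, 1.91% hold an NF-kB match. Among the other ligands, the AREG window has a CRE match at -65, found in 1.85% of windows, and a TATA box at -29, and the EREG window has a TATA box at -32 (11.5% of windows). Matches of letters are a description of these windows and do not show binding. Of the GENCODE transcripts, 3 of 22 of ERBB2, 1 of 3 of HBEGF and 1 of 2 of BTC start inside the printed windows. The ERBB2 window also overlaps one end of the neighbouring gene PGAP3 (chr17:39671122-39688057). Most annotated starts of ERBB2 and of HBEGF thus lie outside their windows, and the matches listed do not describe the promoters at those starts.

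The deposited counts, estimated per gene by RSEM, summed to 16453233 to 17988030 per library, and they were scaled by edgeR's TMM method to CPM, counts set to a common library size. Control replicates lay closer together than RC48 replicates: a chi-square per degree of freedom, near 1 for sampling noise alone, was 1.47 to 11.0 for pairs of Control libraries and 20.7 to 124.5 for pairs of RC48 libraries. The ratio of RC48 replicate 1 to the Control mean followed the GC content of the transcripts across genes (Spearman rho 0.74 over 12981 genes, which are not independent replicates), as did that of RC48 replicate 3 (0.57), whereas RC48 replicate 2 did not (-0.02). Log2 fold changes with this trend removed are given beside the main ones for the 9 genes, and for the pathway genes named where they change sign or move by over 1.5 times. The epithelial markers (EPCAM, CDH1, KRT8, KRT18 and KRT19) were all detected, at 6441 to 7360 summed CPM in Control and 6849 to 7860 in RC48. Of these 5, 2 had positive and 3 negative log2 fold changes and 0 were called. EPCAM had groups apart, lower in RC48 (-0.49, edgeR adjusted p = 0.199). Of all genes tested, 31.5% had groups apart in either direction and 2.21% were called. All 6 luminal markers were detected, at 575 to 584 CPM in Control and 524 to 617 in RC48. Of these 6, 4 had positive and 2 negative log2 fold changes, and 1 was called: KRT20 fell from 1.98 ± 0.044 to 0.667 ± 0.290 CPM (SD, n = 3, edgeR adjusted p = 0.049). KRT20 rested on 34, 35 and 33 counts in Control and 8, 9 and 18 in RC48. FOXA1, the other negative gene, also had groups apart (-0.44, edgeR adjusted p = 0.194). The 4 basal markers summed to 333 to 352 CPM in Control and 310 to 343 in RC48, most of it CD44. Of these 4, 2 had positive and 2 negative log2 fold changes and 0 were called. KRT14 had groups apart, higher in RC48 (0.68, edgeR adjusted p = 0.233). Leukocyte markers summed to 1.16 to 1.24 CPM in Control and 1.83 to 3.71 in RC48, with PTPRC at 0 in Control. Fibroblast markers summed to 272.6 to 309.0 CPM in Control and 376.6 to 463.9 in RC48, nearly all of it COL3A1, with COL1A2 not listed. Endothelial markers summed to 27.9 to 29.7 and 18.4 to 24.9 CPM. edgeR called 0 of the 3 leukocyte, 2 fibroblast and 3 endothelial markers tested. CD3E (16 and 51 summed counts in Control and RC48), CD14 (18 and 49), COL1A1 (log2 fold change 0.74) and COL3A1 (0.55) had groups apart, higher in RC48. PECAM1 had groups apart and lower (-0.43). DESeq2 called COL1A1 and COL3A1, beside 5.7% of all genes. With GC correction PECAM1 and VWF were called lower (edgeR adjusted p = 0.025 and 0.023), beside 6.98% of all genes. The part of these marker differences in the results below was not tested.

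None of the 9 receptors and ligands passed edgeR's quasi-likelihood test at an adjusted p of 0.05 (Benjamini-Hochberg over all genes), where 288 genes (2.21%) of all tested did. At an unadjusted p under 0.05, edgeR gave 2 of the 9, HBEGF and BTC, against 19.1% of all genes. The same 2 genes had groups that did not overlap in CPM, which was so for 31.5% of all genes tested (17.4% higher and 14.1% lower in RC48). DESeq2 called 0 of the 9 (5.7% of all genes), and voom with sample quality weights called 6 (ERBB2, EGFR and HBEGF higher, ERBB4, EREG and BTC lower), where it called 61.4% of all genes. In limma on log2(TPM+1) without RC48 replicate 2, which had no deposited TPM here, BTC, ERBB4 and EREG were called lower. That fit called 15.5% of all genes in either direction and 11.1% as lower. Over the 9 genes the median log2 fold change was 0.02 and the median size of the change 0.25, beside 0.02 and 0.27 over all genes tested. These are bulk values, in which fewer cells of a kind and less RNA per cell cannot be told apart.

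**Figure D1:**
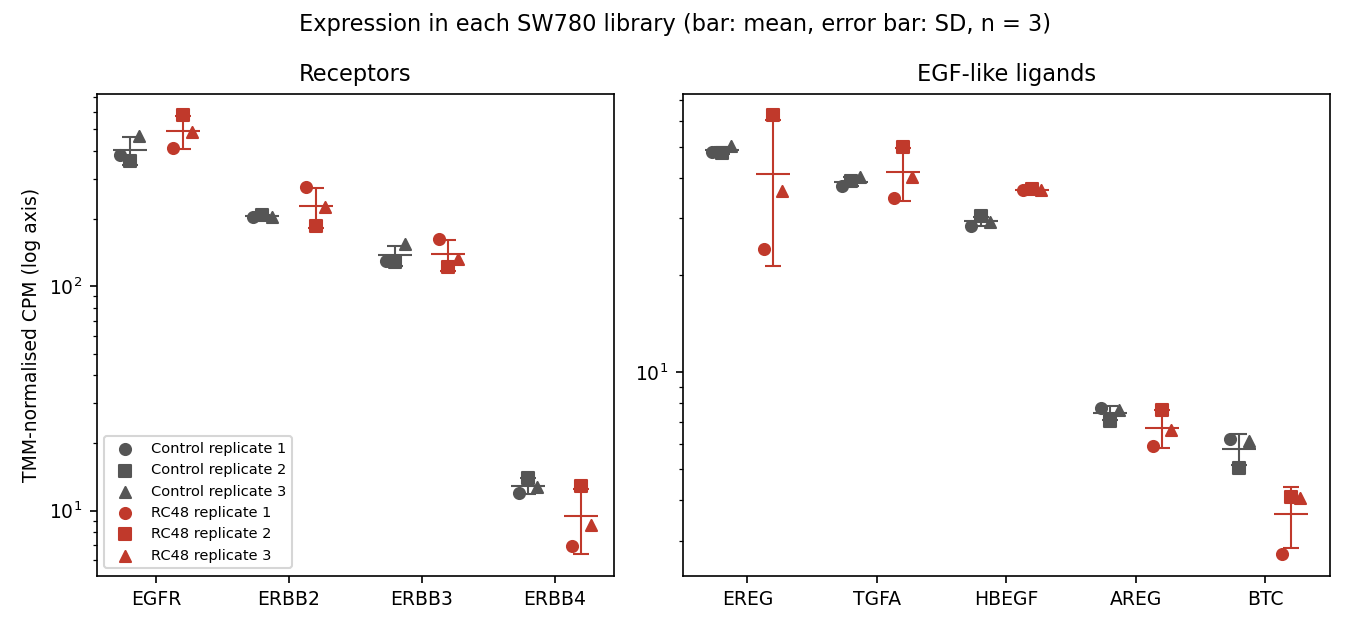
TMM-normalised CPM of the receptors (left) and ligands (right) on a log axis, one point per library, grey for Control and red for RC48, with the mean and SD of 3 libraries. The RC48 points spread more widely than the Control points in 8 of the 9 genes, and the groups are apart only in HBEGF and BTC.

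Among the receptors, ERBB2 mRNA was 202.7, 208.4 and 203.7 CPM in Control replicates 1, 2 and 3. In RC48 replicates 1, 2 and 3 it was 277.1, 184.7 and 224.6 CPM. RC48 replicates 1 and 3 lay above every Control library and RC48 replicate 2 below, so the groups overlapped. The fitted log2 fold change was 0.16 ± 0.16 (SE, n = 3 per group, edgeR adjusted p = 0.519), with a 95% interval from -0.21 to 0.52. On the linear scale this was a ratio of 1.12 with an interval of 0.867 to 1.44, which holds both a small fall and a rise. A two-sided exact permutation test on log2 CPM gave p = 0.6, where 0.1 is the smallest p that 3 against 3 libraries allow. With the GC trend removed, ERBB2 was 220.7, 225.5 and 229.5 CPM in Control and 200.7, 203.6 and 211.9 CPM in RC48. All 3 RC48 libraries then lay below all 3 Control libraries, and the ratio of the highest to the lowest RC48 library went from 1.5 to 1.06. Its log2 fold change turned to -0.13 (95% interval -0.30 to 0.03, edgeR adjusted p = 0.282). The sign for ERBB2 thus depended on the correction, and neither estimate passed the test.

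EGFR, the receptor of all 5 ligands, was 383.2, 359.6 and 469.2 CPM in Control replicates 1, 2 and 3. It was 411.5, 577.0 and 485.4 CPM in RC48 replicates 1, 2 and 3. RC48 replicates 2 and 3 were above the highest Control library, while replicate 1 lay inside the Control range. The log2 fold change was 0.28 ± 0.16 (SE, 95% interval -0.10 to 0.66, edgeR adjusted p = 0.326), and 0.17 after GC correction (edgeR adjusted p = 0.578). The correction widened the RC48 range of EGFR, whose highest library was 1.40 times the lowest before it and 1.68 times after.

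ERBB3, the partner with the weak kinase, was 129.6, 127.8 and 153.9 CPM in Control and 162.8, 121.3 and 131.8 CPM in RC48, in the order of replicates 1, 2 and 3. Its RC48 values lay on both sides of the Control range, and the log2 fold change was 0.02 ± 0.15 (SE, 95% interval -0.33 to 0.36, edgeR adjusted p = 0.95). With GC correction it was -0.10 (edgeR adjusted p = 0.567). ERBB4, the receptor shared by HBEGF, EREG, BTC and the neuregulins, was the least abundant receptor. It was 11.9, 13.96 and 12.7 CPM in Control and 6.92, 12.9 and 8.63 CPM in RC48. RC48 replicates 1 and 3 were below every Control library and replicate 2 was inside the Control range. A log2 fold change of -0.44 ± 0.23 (SE, 95% interval -0.98 to 0.10, edgeR adjusted p = 0.303) became -0.11 after GC correction (edgeR adjusted p = 0.593). Without RC48 replicate 2, ERBB4 passed the test (log2 fold change -0.73, edgeR adjusted p = 0.0279) in a fit that called 28.3% of all genes and 14.1% as lower.

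Of the ligands, HBEGF, which also binds heparan sulphate, was the only one of the 9 genes with every RC48 library above every Control library. Its values were 28.5, 30.5 and 29.2 CPM in Control and 36.8, 37.0 and 36.7 CPM in RC48. The RC48 libraries, which differed by up to 2.60 times in EREG, differed by 1.01 times in HBEGF. With GC correction they differed by 1.24 times in EREG and by 1.10 times in HBEGF. Before correction, the log2 fold change of HBEGF was 0.32 ± 0.12 (SE, n = 3 per group), a ratio of 1.25 with a 95% interval of 1.04 to 1.51. It did not pass the test over all genes (p = 0.0247, edgeR adjusted p = 0.216), and the exact permutation test gave p = 0.1, the smallest it can give. With GC correction the groups were still apart, at 29.3, 31.3 and 29.7 CPM in Control and 34.2, 37.7 and 35.9 CPM in RC48 (log2 fold change 0.26, edgeR adjusted p = 0.105).

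BTC, the least abundant ligand, was the only one of the 9 with every RC48 library below every Control library. It had 107, 87 and 104 counts in Control and 45, 72 and 73 counts in RC48, or 6.19, 5.04 and 6.12 CPM against 2.73, 4.11 and 4.06 CPM. The lowest Control library and the highest RC48 library were 5.04 and 4.11 CPM, and RC48 replicate 1 lay well below the other two RC48 libraries. The log2 fold change was -0.67 ± 0.21 (SE, n = 3 per group), a ratio of 0.630 with a 95% interval of 0.449 to 0.885. It did not pass the test over all genes (p = 0.0141, edgeR adjusted p = 0.181), and the exact permutation test gave p = 0.1. With GC correction the groups stayed apart, from 4.51 to 5.48 CPM in Control and 3.63 to 4.43 CPM in RC48. The corrected log2 fold change was -0.33 (edgeR adjusted p = 0.227). Without RC48 replicate 2, BTC passed the test (log2 fold change -0.77, edgeR adjusted p = 0.0448), where 28.3% of all genes were called and 14.1% as lower.

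EREG, which acts on EGFR and ERBB4, had the widest spread of the 9 genes in RC48. It was 48.1, 48.0 and 50.3 CPM in Control and 24.1, 62.6 and 36.6 CPM in RC48. RC48 replicate 2 was above every Control library and RC48 replicates 1 and 3 were below every Control library. The log2 fold change was -0.25 ± 0.31 (SE, 95% interval -0.96 to 0.46, edgeR adjusted p = 0.604). With GC correction, EREG was 40.6, 40.9 and 41.1 CPM in Control and 43.2, 51.9 and 41.8 CPM in RC48. Every RC48 library then lay above every Control library, and the log2 fold change turned to 0.16 (edgeR adjusted p = 0.337). Leaving out RC48 replicate 2 gave -0.69 (edgeR adjusted p = 0.0344), in the fit that called 28.3% of all genes and 14.1% as lower. Leaving out RC48 replicate 1 gave 0.02.

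AREG, an EGFR ligand next to EREG on chromosome 4, was 7.75, 7.07 and 7.65 CPM in Control and 5.89, 7.65 and 6.62 CPM in RC48. RC48 replicates 1 and 3 were below the Control range and replicate 2 inside it, and the log2 fold change was -0.16 ± 0.16 (SE, 95% interval -0.53 to 0.22, edgeR adjusted p = 0.538). TGFA, the other ligand that acts on EGFR alone, was 37.7, 39.1 and 40.3 CPM in Control and 34.8, 50.1 and 40.4 CPM in RC48. Its RC48 libraries lay on both sides of the Control range, and the log2 fold change was 0.10 ± 0.16 (SE, 95% interval -0.27 to 0.47, edgeR adjusted p = 0.695). After GC correction both genes were near 0, at 0.04 for AREG (edgeR adjusted p = 0.849) and -0.00041 for TGFA (edgeR adjusted p = 0.999).

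**Figure D2:**
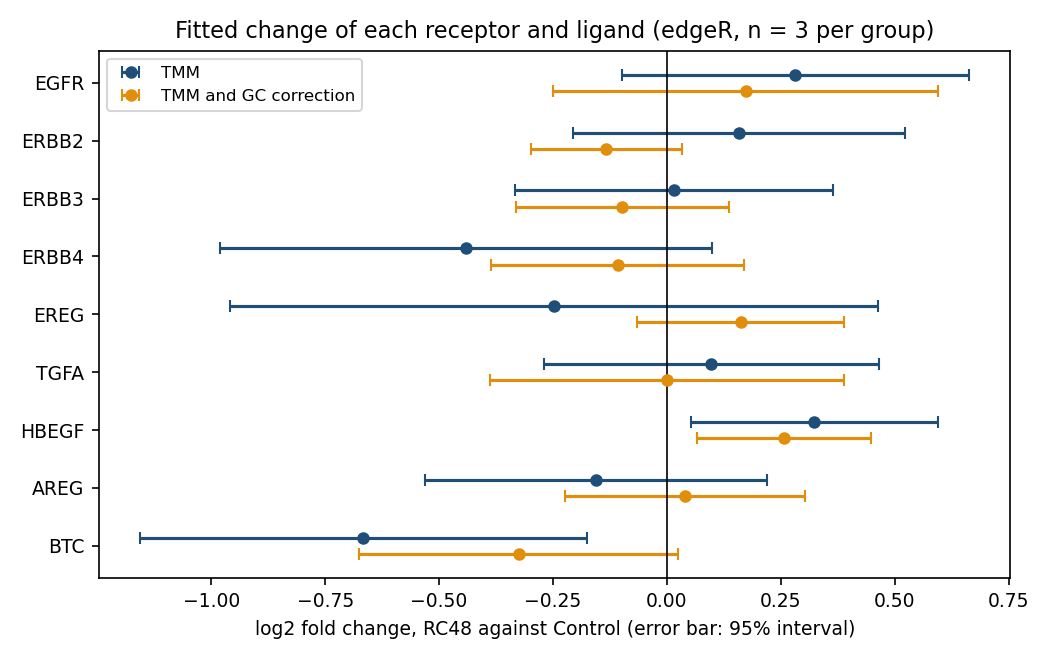
Log2 fold change of RC48 against Control for each receptor and ligand, with 95% intervals from edgeR (n = 3 per group), before (blue) and after (orange) the correction for GC content. Before the correction only the intervals of HBEGF and BTC leave out 0, and after it only that of HBEGF does, and no gene passes the adjusted test in either fit.

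The members divided by how the 3 RC48 libraries were ordered. In 7 of the 9 genes RC48 replicate 1 was below RC48 replicate 2, and in the other two, ERBB2 and ERBB3, it was above. RC48 replicate 3 lay between them in 8 of the 9. ERBB2 has the highest transcript GC content of the 9 (59.4%) and EREG the lowest (36.1%), beside a median of 49.95% over all genes tested. Against the Control mean, RC48 replicate 1 stood at a log2 ratio of 0.44 for ERBB2 and -1.02 for EREG. RC48 replicate 2 stood at -0.15 for ERBB2 and 0.36 for EREG. So these libraries ranked the target of RC48 and this ligand in opposite order. Across the 9 genes, Spearman's rho between GC content and the log2 ratio was 0.80 in RC48 replicate 1, 0.17 in replicate 2 and 0.77 in replicate 3, a description over 9 genes of shared libraries. GC correction narrowed the RC48 range in 6 of the 9 genes, with the ratio of highest to lowest going from 2.60 to 1.24 in EREG and from 1.86 to 1.20 in ERBB4. It widened the range in EGFR, TGFA (1.44 to 1.69) and HBEGF (1.01 to 1.10). After it, the groups were apart in 4 of the 9 genes (ERBB2 and BTC lower, EREG and HBEGF higher after RC48), where 33.6% of all genes tested were apart. The corrected fit called 0 of the 9 and 6.98% of all genes.

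**Figure D3:**
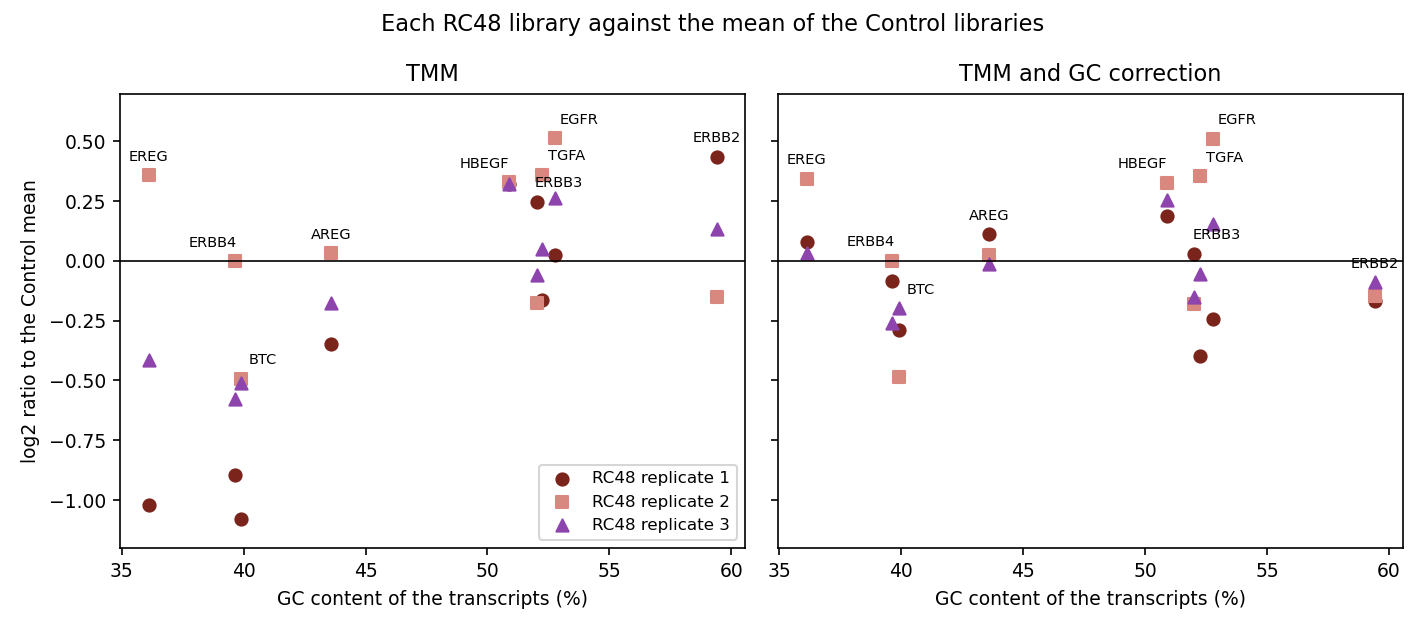
Expression in the RC48 libraries as a log2 ratio to the Control mean, plotted against the GC content of the transcripts (%), one point per gene and library, before (left) and after (right) GC correction. Before it, EREG in RC48 replicate 1 stood at -1.02 and ERBB2 at 0.44; after it, the 3 RC48 libraries of ERBB2 lie together below 0, while those of EGFR and TGFA remain spread.

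Levels were compared between genes in TPM, which takes account of transcript length. The TPM of RC48 replicate 2 was computed here from its counts. In Control, ERBB2 (83.0 ± 4.16 TPM, SD, n = 3) and EGFR (77.6 ± 14.6) were the most abundant of the 9. The range of ERBB2 over the Control libraries lay inside that of EGFR. ERBB3 followed at 47.8 ± 7.0 TPM, and ERBB4 was at 1.93 ± 0.16. HBEGF was the most abundant ligand at 25.3 ± 1.46 TPM, followed by EREG (19.9 ± 1.61) and TGFA (18.0 ± 1.53), whose ranges over the libraries overlapped. AREG was at 14.4 ± 1.28 TPM and BTC at 4.49 ± 0.64. In RC48 the means were 87.5 ± 12.3 TPM for ERBB2, 91.2 ± 20.8 for EGFR, 47.3 ± 5.60 for ERBB3 and 1.37 ± 0.52 for ERBB4. Those of the ligands were 29.8 ± 2.32 TPM for HBEGF, 18.5 ± 4.61 for TGFA, 16.3 ± 8.74 for EREG, 11.95 ± 2.77 for AREG and 2.67 ± 0.74 for BTC. In RC48 the range of EREG overlapped those of TGFA and AREG, and BTC stayed the lowest ligand in every library.

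ERBB2 made up 40.4%, 42.1% and 36.6% of the summed TPM of the 4 receptors in Control replicates 1, 2 and 3. It made up 44.4%, 32.4% and 38.9% in RC48 replicates 1, 2 and 3, on both sides of the Control range. The ratio of ERBB2 to EGFR in TPM was 1.11, 1.22 and 0.930 in Control and 1.41, 0.672 and 0.964 in RC48. ERBB2 was thus the more abundant in 2 Control libraries and in RC48 replicate 1, and EGFR in the other 3 libraries. Receptor TPM summed to 194.4 to 239.7 in Control and 222.2 to 233.6 in RC48, and ligand TPM to 78.6 to 88.8 and 61.6 to 99.4. HBEGF took 30.01% to 32.2% of the ligand TPM in Control and 44.6%, 32.3% and 39.0% in RC48 replicates 1, 2 and 3, with the lowest RC48 library just above the highest Control library. BTC took 4.81% to 5.91% in Control and 2.97% to 3.88% in RC48. AREG took 16.6% to 18.3% in Control and 14.9% to 15.4% in RC48, and the share of TGFA was 21.4% to 22.2% and 23.2% to 23.5%. The groups were apart in these 4 shares, while that of EREG was 24.1% to 24.5% in Control and 14.2% to 26.03% in RC48. The ligand shares make up one whole, so they are not separate results. In CPM only HBEGF and BTC had groups apart, beside 31.5% of all genes tested. The narrow gap in the HBEGF share rests on the computed TPM of RC48 replicate 2. For RC48 replicate 3 the same calculation differed from the deposited TPM by a median absolute log2 difference of 0.0368.

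**Figure D4:**
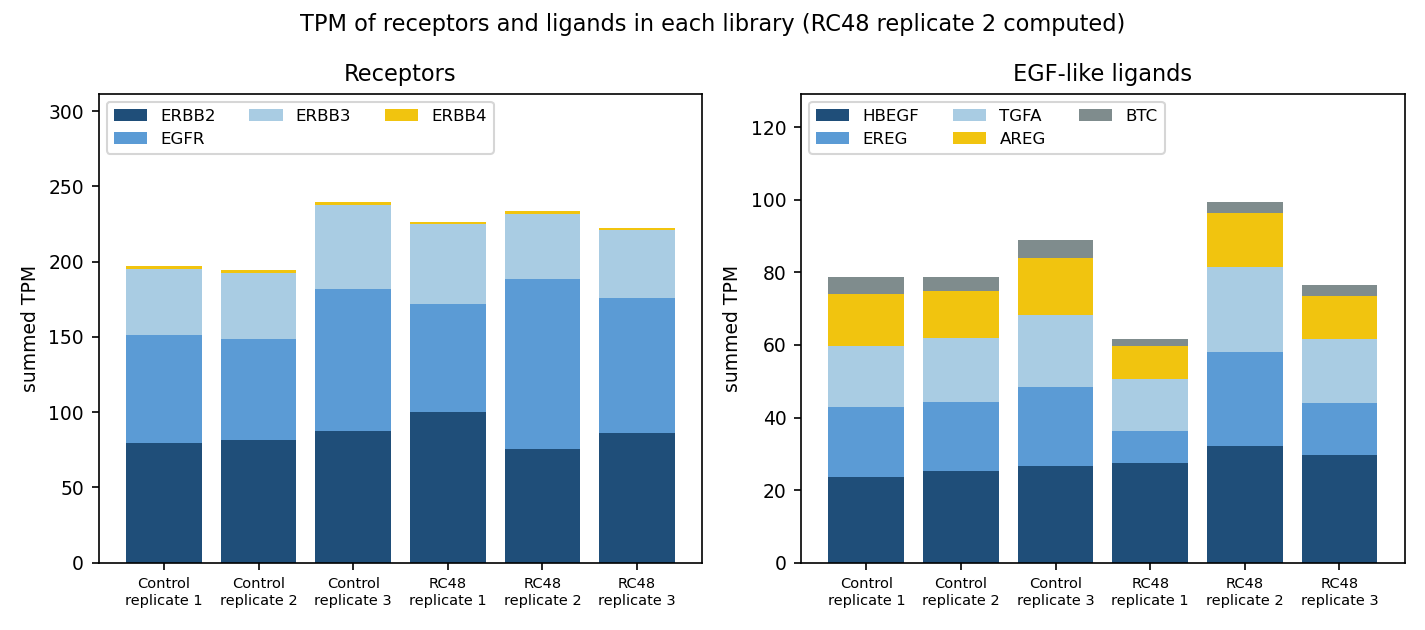
Summed TPM of the 4 receptors (left) and 5 ligands (right) in each library, stacked by gene, with the TPM of RC48 replicate 2 computed from its counts. ERBB2, EGFR and ERBB3 make up nearly all receptor TPM in every library, and the ligand sum is lowest in RC48 replicate 1 (61.6) and highest in RC48 replicate 2 (99.4).

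Of 67 other genes of the pathway, in 8 lists, 66 were listed and 63 tested. edgeR called 0 of the 63, with 8 at an unadjusted p under 0.05, beside 2.21% and 19.1% of all genes. DESeq2 called 1, ETV4, and voom called 46, where they called 5.7% and 61.4% of all genes. Of the 63, 29 had a positive and 34 a negative log2 fold change, with a median of -0.07 beside 0.02 over all genes, and a range from -0.62 to 1.04. The groups were apart in 21 of the 63, 10 higher and 11 lower in RC48, beside 31.5% of all genes tested (17.4% higher and 14.1% lower). Pathway genes named here that are not the most abundant of their list were chosen after their values were seen.

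Among the other ligands, 3 of 6 were tested and 0 called, with EGF and EPGN too low for the test and NRG3 not listed. NRG1, a ligand of ERBB3 and ERBB4, was the most abundant at 30.7 ± 0.392 CPM in Control and 31.7 ± 3.54 in RC48 (SD, n = 3), a log2 fold change of 0.05. The proteins that shed the ligands gave 6 tested and 0 called genes. In this list RHBDF1, RHBDF2 and FRMD8, which carry or hold the sheddase ADAM17 on its way to the surface, all had groups apart. Their log2 fold changes were 0.57, 0.62 and 0.34 (edgeR adjusted p = 0.226, 0.190 and 0.271). Of all genes tested, 17.4% had groups apart and higher in RC48. Transcripts of these 3 genes have a GC content of 62.0% to 65.0%. With GC correction the values were 0.23, 0.29 and 0.03, and the groups of FRMD8 overlapped. ADAM17 itself was at -0.10 and, with GC correction, at 0.18. ADAM10, the other main sheddase, was at -0.30, and TIMP3, an inhibitor of them, was at 349.1 and 354.9 CPM in Control and RC48 (log2 fold change 0.02, and 0.04 with GC correction).

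Downstream of the receptors, the adaptors gave 10 tested and 0 called genes, led in abundance by SHC1 at 324.6 ± 12.1 CPM in Control and 365.0 ± 71.9 in RC48 (SD, n = 3, log2 fold change 0.17, and -0.07 with GC correction). PTPN11, the phosphatase that relays receptor signals to RAS, had groups apart (log2 fold change -0.46, edgeR adjusted p = 0.260). The RAS-ERK list gave 10 tested and 0 called genes. In it the kinases BRAF and MAP2K2 had groups apart in opposite directions, with log2 fold changes of -0.42 and 0.61 (edgeR adjusted p = 0.224 and 0.223). With GC correction these were -0.15 and 0.27, and the groups of BRAF overlapped. The PI3K-AKT list gave 12 tested and 0 called genes and none at an unadjusted p under 0.05, with AKT2 at 347.5 ± 2.66 CPM in Control and 407.7 ± 122.0 in RC48 (SD, n = 3). Its log2 fold change was 0.23, and -0.08 with GC correction.

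Of the inhibitors of the receptors, 11 were tested and 0 called. ERRFI1, an inhibitor of the EGFR and ERBB2 kinases, was the most abundant at 135.4 ± 2.98 CPM in Control and 111.7 ± 20.6 in RC48 (SD, n = 3), with groups apart (log2 fold change -0.28, edgeR adjusted p = 0.314). LRIG1, which promotes the breakdown of ERBB receptors, had the largest log2 fold change of the 63 genes. It rested on 17, 28 and 30 counts in Control and 69, 46 and 40 in RC48, and the groups did not overlap (log2 fold change 1.04 ± 0.33, SE, edgeR adjusted p = 0.177). Of 6 partners of ERBB2, 5 were tested and 0 called, all but MUC4. HSP90AB1, a chaperone, was at 1481 ± 20.9 CPM in Control and 1248 ± 116 in RC48, with groups apart (log2 fold change -0.25, edgeR adjusted p = 0.274). CAV1, a protein of membrane caveolae, had groups apart at a log2 fold change of 0.34 (edgeR adjusted p = 0.181) and passed the test with GC correction (0.45, edgeR adjusted p = 0.027).

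The 6 transcription factors reported to act on the ERBB2 promoter were all tested and 0 called. Of these, 1 had a positive and 5 a negative log2 fold change. Groups were apart in 1 higher (ELF3, 0.29) and 4 lower in RC48: ETV4, TFAP2A (-0.21), TFAP2C (-0.23) and YY1 (-0.31). Of all genes tested, 17.4% were apart and higher and 14.1% apart and lower. With GC correction ELF3 was at 0.06, TFAP2A at -0.41, TFAP2C at -0.48 and YY1 at -0.39. The groups of ELF3 and TFAP2C then overlapped, and those of YBX1 were apart. YBX1 was the most abundant (913.9 ± 64.6 CPM in Control and 844.1 ± 22.2 in RC48, SD, n = 3), at a log2 fold change of -0.11, and -0.25 with GC correction. The ETS factor ETV4 was 74.5, 70.7 and 61.1 CPM in Control and 48.2, 46.9 and 51.0 CPM in RC48. All RC48 libraries were below all Control libraries, with a log2 fold change of -0.50 ± 0.13 (SE, edgeR adjusted p = 0.115), and with GC correction ETV4 passed the test (-0.76, edgeR adjusted p = 0.021). CBLB, a ubiquitin ligase of EGFR, was the remaining pathway gene called with GC correction (0.39, edgeR adjusted p = 0.047, against 0.20 before correction).

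**Figure D5:**
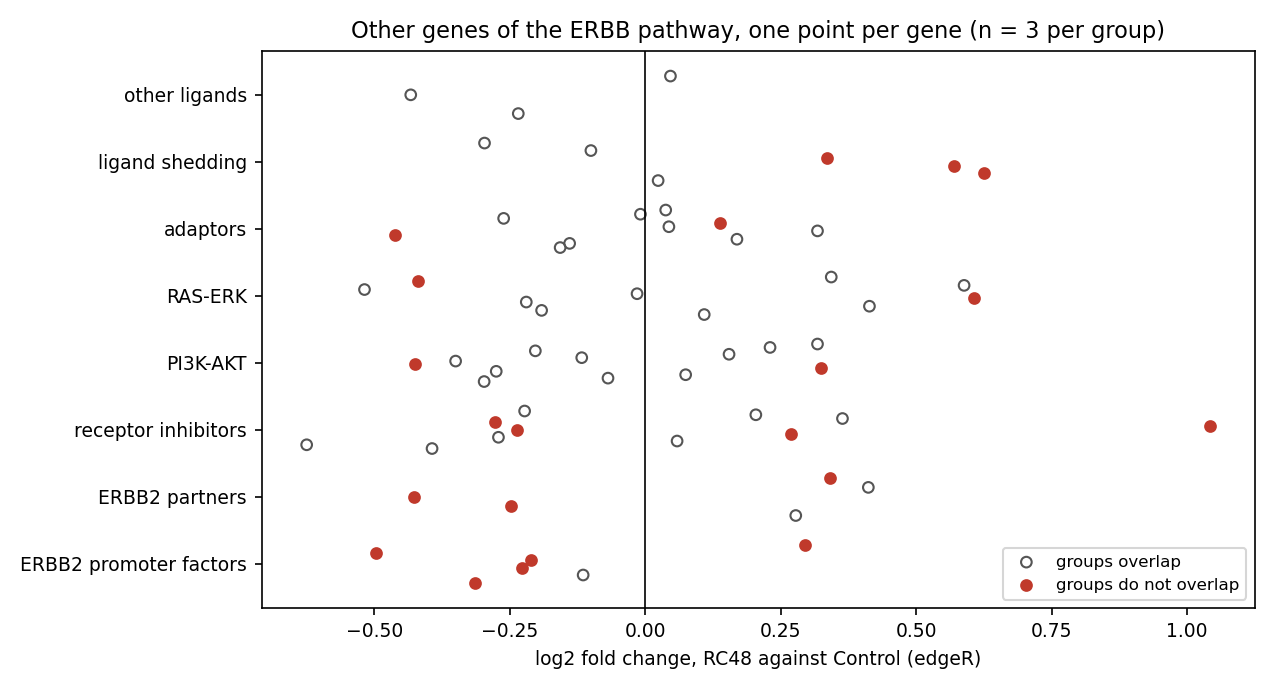
Log2 fold change (edgeR, RC48 against Control, n = 3 per group) of 63 other genes of the ERBB pathway, one point per gene in 8 lists, filled red where the groups do not overlap. Points lie on both sides of 0 in every list, from -0.62 to 1.04 for LRIG1, and none passes the adjusted test.

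Around ERBB2, 14 genes starting within 250 kb were listed and 8 tested, with 0 called. Their log2 fold changes ran from -0.15 to 0.43 with a median of 0.26, beside 0.16 for ERBB2. With GC correction they ran from -0.28 (GRB7) to 0.45 (IKZF3), beside -0.13 for ERBB2. STARD3 went from 0.42 to 0.10 and PGAP3 from 0.37 to 0.02. MIEN1 (0.09 to -0.20) and GRB7 (0.04 to -0.28) changed sign, and the other tested neighbours kept theirs. Around AREG, EREG and BTC, 2 genes were listed and 1 tested, PARM1, at 0.56 (edgeR adjusted p = 0.056), opposite in sign to the 3 ligands beside it. With GC correction PARM1 passed the test (0.72, edgeR adjusted p = 0.0040), and AREG and EREG then had the same sign as PARM1. The genes whose log2 CPM was most like that of ERBB2 over the 6 libraries were HIP1R, MTA2, CAPN15, ZNF584 and C1orf216 (Pearson's r 0.998 to 0.995), and 678 of 13054 genes were above 0.95. Those most like BTC were FAM120C, KIF4A, PDK3, ZNF432 and ZNF347 (0.998 to 0.991), with 254 genes above 0.95. These likenesses are descriptions over 6 libraries that share their group and their GC trend.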

How the data were processed

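Total RNA of 6 SW780 libraries was sequenced. The authors used SOAPnuke to filter reads, Bowtie2 for mapping and RSEM for counting, and the submitters' processing notes name hg38. Versions and the annotation are not given in the sources used here. The authors deposited estimated counts per gene, not normalized, of which 11.7% to 15.0% per library are not whole, and TPM values, normalized for length and depth. RC48 replicate 2 had no TPM here, so one was calculated from counts and the effective lengths implied by the other libraries. For RC48 replicate 3 this differed from the deposited TPM by a median of 0.0368 (absolute log2 difference, 11982 genes). Library totals differed by at most 1.09 times.

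Counts were rounded and filtered with filterByExpr. After TMM scaling, edgeR's quasi-likelihood test was run without covariates at a Benjamini-Hochberg threshold of 0.05 over all genes (R 4.3.3, edgeR 4.0.16, limma 3.58.1), after a test of the script on simulated data. For the GC correction, a loess trend (span 0.3) of log2 CPM on transcript GC content, known for 99.0% of genes, was fitted in each library. The departure of each library's trend from the mean trend over the libraries was then removed. Exact permutation tests were two-sided. Alternatives were DESeq2 1.42.0, voom with quality weights, limma on log2(TPM+1) or log2(TPM+0.1), RLE, library sizes, other filters, the GC correction, a replicate term and leaving out each library.

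Members and lists were chosen with earlier results of these data known. By rule, those named were all 9 members, called genes (up to 4) and the most abundant gene of each list, and the 5 genes most like ERBB2 and BTC. Other pathway genes were named after their values were seen, for an unadjusted p under 0.05, groups apart, a call in another fit or their role beside these. Some items that the rule covers are not reported here. Tables and figures used Python 3.11.15, pandas 2.3.3, scipy 1.17.1 and matplotlib 3.10.9.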

Additional observations from a re-analysis of the deposited data

How the results depend on the processing

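Genes called numbered 288, and 744 with DESeq2, 8018 with voom, 2234 with limma on log2(TPM+1) without RC48 replicate 2, 911 with GC correction, 686 with GC correction and a replicate block, and 68 to 3726 with 1 library left out (3726 without RC48 replicate 2). Of the 9 receptors and ligands 0 were called, and 6 with voom, 3 with limma on log2(TPM+1) without RC48 replicate 2 (BTC, ERBB4 and EREG), and 0 to 3 with 1 library left out (3 without RC48 replicate 2). Pathway genes called were 0, and 1 with DESeq2, 46 with voom, 8 with limma on 5 libraries, 3 with GC correction, 1 with GC correction and replicate block, and 0 to 18 with 1 library left out (18 without RC48 replicate 2, 1 without RC48 replicate 1). ERBB2 was called only by voom (log2 fold change 0.13, adjusted p = 0.0431). It turned to -0.13 with GC correction and -0.13 with the block and GC correction, and ran from -0.0084 (without RC48 replicate 1) to 0.29 with 1 library left out. Deviations from the group mean, over all genes, correlated at 0.0020, -0.13 and 0.0048 between Control and RC48 libraries of equal replicate number. For unequal numbers they correlated at -0.11 to 0.13. These values show no pairing by replicate number but cannot exclude one, because the GC trend also differs between the RC48 libraries. The replicate block gave ERBB2 0.14 (edgeR adjusted p = 0.671) and 331 genes called.

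ERBB3 reversed with library sizes (-0.054), limma on 6 libraries (-0.0101), log2(TPM+0.1) (-0.0103), GC correction (-0.10) and block with GC correction (-0.10), and ran from -0.12 to 0.11 with 1 library left out. AREG reversed with GC correction (0.040) and block with GC correction (0.042). EREG reversed with GC correction (0.16) and block with GC correction (0.15), and ran from -0.69 to 0.015 with 1 library left out. TGFA reversed with limma on 5 libraries (-0.17), GC correction (-0.00041) and block with GC correction (-0.029), and ran from -0.056 to 0.21 with 1 library left out. EGFR, ERBB4, HBEGF and BTC kept their sign in all 18 alternatives, with BTC from -0.77 to -0.32 and HBEGF from 0.17 to 0.35. The causes were not tested, beyond that the GC correction removes a trend and leaving out a library changes the samples. BTC rests on 190 counts in the RC48 libraries, which limits its precision.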
